A study of Mus musculus with 8 samples.

Results

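Batf, Batf3, Fosl2, Jund, Irf4, Irf8, Nfatc1, Nfatc2, Nfatc3 and Bhlhe40 are transcription factor genes that act in T cells after activation. They were taken by symbol from the deposited table of read counts, where all 10 were found among 49040 genes. The cells were mouse CD4+ T cells of the strain C57BL/6J, taken as naive cells and stimulated for 72 h with plate-bound antibodies to CD3 and CD28 under Th1-polarising conditions. One group was wild type and the other was Ikzf4-/-, for which the labels name no promoter or Cre. Ikzf4 encodes Eos, a zinc-finger factor of the Ikaros family. Each group had 4 libraries of total RNA, numbered 1 to 4, and the labels do not say whether a number stands for an animal, a litter or a culture, so that p-values measure the spread between libraries, which may be partly technical. The labels give no age.

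As background, T cell receptor signalling raises calcium in the cell, and the phosphatase calcineurin then lets NFAT proteins enter the nucleus. There they meet AP-1 dimers, which pair a JUN protein with a FOS or BATF protein. BATF dimers also bind DNA together with IRF4 or IRF8, and these complexes drive effector genes in T cells. BHLHE40 is a repressor of the basic helix-loop-helix family that sustains cytokine production in Th1 cells. All of these proteins are regulated after translation as well, which RNA counts do not measure.

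The libraries matched their labels. Ikzf4 had 1814, 1469, 1471 and 1386 counts in wild type 1 to 4 and 75, 139, 125 and 96 in knockout 1 to 4, which left 7.13% of the wild-type level. Library totals ran from 25227017 to 53149322 counts, and the members had between 693 and 33352 counts in each library, so counting error was small beside the spread between libraries. The defining CD4 T cell genes Cd3d, Cd3e, Cd3g, Cd4, Trac, Cd5, Cd28 and Lck were present in every library, with a summed level of 3209 to 3608 CPM (counts scaled to library size) in wild-type libraries and 3159 to 3824 CPM in knockout ones. Both libraries numbered 2 stood apart: they carried Xist at 503 and 588 CPM, against at most 0.570 CPM in the other 6, and nearly lacked the Y-linked gene Ddx3y.

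None of the 10 members passed the test between genotypes. The edgeR quasi-likelihood test with genotype as its only term, with p-values adjusted over 14672 genes at a threshold of 0.05, called 0 of 10 members, beside 0.157% of all genes tested. With the replicate number as a block it again called 0 of 10, beside 6.71% of all genes, and DESeq2 called 0 of 10, beside 1.46%. At an unadjusted p under 0.05 the numbers of members were 0 without the block and 4 with it, where all genes gave 8.10% and 21.7%. No member had all its knockout libraries above or below all its wild-type libraries, a pattern that 4.96% of the genes tested showed. The median change of the members was -0.08 on the log2 scale, and that of all genes tested was -0.00314.

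**Figure D1:**
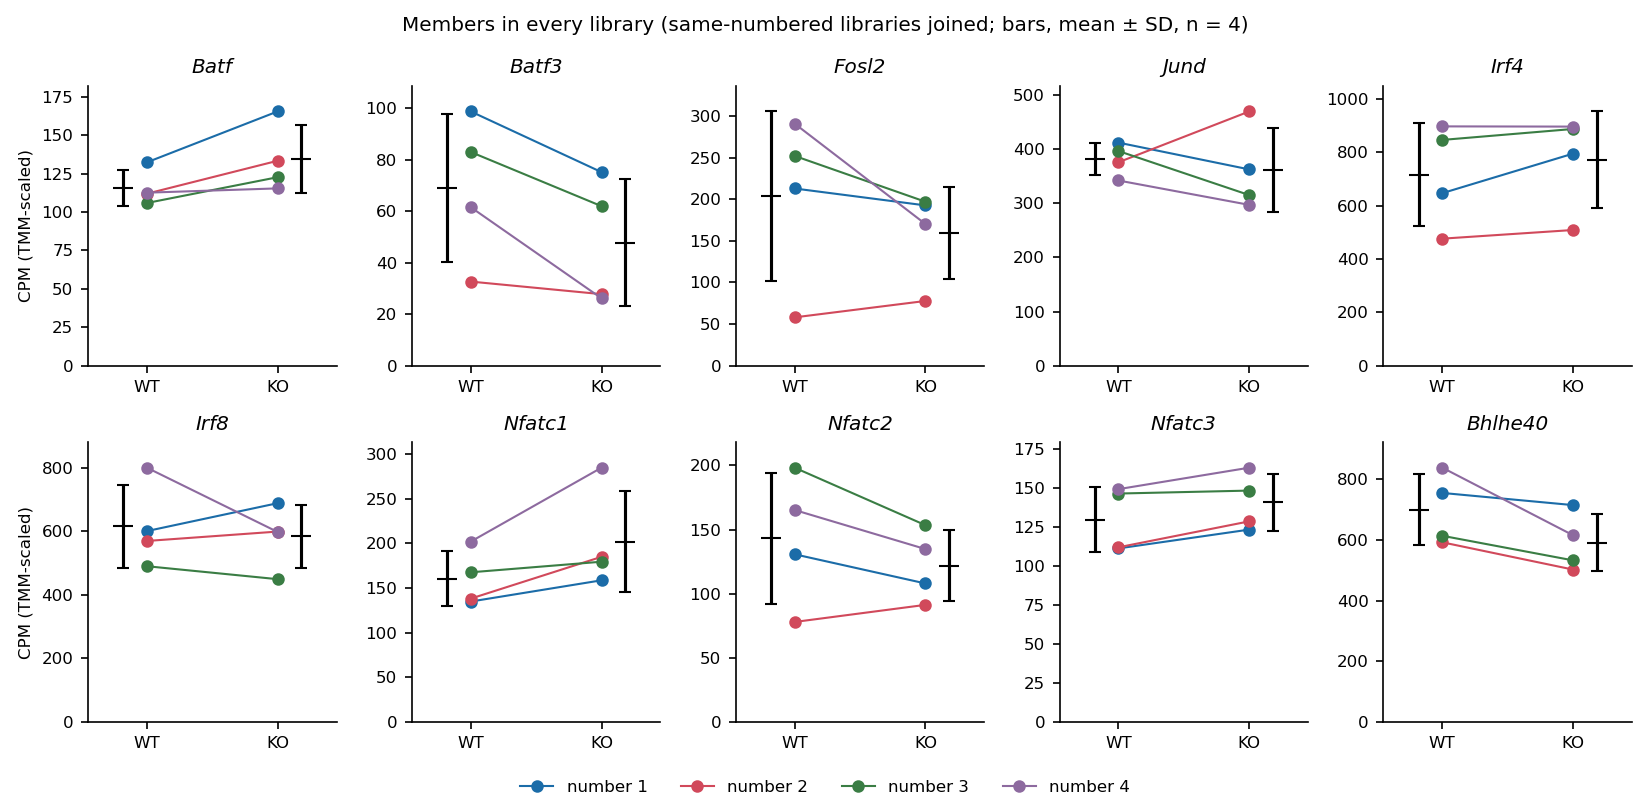
Level of each member in CPM (linear axes from 0) in wild-type (WT) and knockout (KO) libraries; coloured lines join libraries with the same number, and black bars are the mean ± SD of 4 libraries. The groups overlap in all 10 panels, and in Fosl2 the number 2 libraries lie at 58.1 and 77.8 CPM, under the other 6.

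In the AP-1 group, Batf and Batf3 had differences of opposite sign in each numbered pair, and neither passed the test. Batf encodes the small leucine-zipper partner that helps effector programmes start. It stood at 132, 112, 106 and 113 CPM in wild type 1 to 4 and at 166, 133, 123 and 115 CPM in knockout 1 to 4. The knockout library was the higher one in all 4 pairs, while the groups overlapped. The log2 change was 0.21 ± 0.13 (SE), with edgeR adjusted p = 0.749, and the blocked fit gave 0.21 ± 0.07 with edgeR adjusted p = 0.141.

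Batf3, a close relative of Batf that also serves dendritic cell development, had the largest estimated change of the members with all 8 libraries. It stood at 98.8, 32.7, 83.0 and 61.6 CPM in wild type 1 to 4 and at 75.2, 27.8, 62.0 and 26.2 CPM in knockout 1 to 4. Each knockout library lay below the wild-type library of its number, most clearly number 4. The log2 change was -0.53 ± 0.42 without the block (edgeR adjusted p = 0.845) and -0.56 ± 0.15 with it (edgeR adjusted p = 0.0623). The 95% interval of the blocked change ran from -0.90 to -0.22, and that without the block from -1.49 to 0.42. Its place as the largest change did not hold without wild type 1 or knockout 4, where Batf3 was at -0.31 and -0.33 and Fosl2 at -0.33 and -0.39, or without knockout 2, where Batf3 was at -0.34 and Nfatc1 at 0.37.

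Fosl2 encodes FRA-2, a FOS-type partner in AP-1. It stood at 213, 58.1, 252 and 291 CPM in wild type 1 to 4 and at 193, 77.8, 197 and 170 CPM in knockout 1 to 4. The number 2 libraries were the lowest of their group in both genotypes, and number 2 was also the one pair in which the knockout was higher. The change was -0.35 ± 0.46 on the log2 scale (edgeR adjusted p = 0.927). It was -0.66 without wild type 2, -0.13 without wild type 4, -0.12 without knockout 2 and -0.43 without both libraries numbered 2. Jund, which encodes the JUN-type partner JunD, stood at 412, 376, 397 and 342 CPM in wild type 1 to 4 and at 363, 470, 315 and 297 CPM in knockout 1 to 4. Knockout 2 was the highest of all 8 libraries and the other 3 knockout libraries lay below their wild-type counterparts (log2 change -0.08 ± 0.15, edgeR adjusted p = 0.959). Leaving out 1 library moved this between -0.23 (without knockout 2) and -0.00105 (without knockout 4), and without both libraries numbered 2 it was -0.24.

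Both interferon regulatory factors were abundant and had estimates near 0. Irf4, whose expression scales with the strength of T cell receptor signalling, stood at 647, 477, 847 and 898 CPM in wild type 1 to 4 and at 796, 509, 888 and 897 CPM in knockout 1 to 4. Libraries numbered 2, 3 or 4 lay close to their partner, and number 2 was lowest in both genotypes. The log2 change was 0.11 ± 0.23 (edgeR adjusted p = 0.963), and it was -0.05 when wild type 2 was left out. The blocked 95% interval ran from -0.05 to 0.28, or from 0.969-fold to 1.21-fold.

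Irf8, a partner of BATF proteins best known from myeloid and B cells, stood at 600, 569, 490 and 800 CPM in wild type 1 to 4 and at 688, 599, 449 and 598 CPM in knockout 1 to 4. The highest library was wild type 4 and the lowest was knockout 3, and 2 of the 4 pairs were higher in the knockout. Its log2 change was -0.08 ± 0.17 (edgeR adjusted p = 0.966) and turned to 0.08 without wild type 4, to 0.03 without knockout 3 and to 0.05 in the blocked fit without number 4. B cell markers summed to between 4.48 and 15.7 CPM in wild-type libraries and to between 4.87 and 24.9 CPM in knockout libraries, and dendritic cell markers to between 3.77 and 7.45 CPM and between 3.63 and 11.3 CPM. Of 8 B cell markers 4 passed the filter on low counts and of 9 dendritic markers 3 did, while Clec9a and Cd209a had no counts. Among the B cell markers that passed, Ebf1 had the highest mean (wild type 10.5 CPM, knockout 8.27 CPM) and was the main part of the wild-type sum. For Cd79a, Cd79b and Cd22 no group mean exceeded 0.837 CPM, the wild-type value of Cd79a. The part of such cells in the level of Irf8 was not tested.

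Among the NFAT genes, Nfatc1 and Nfatc3 were higher in the knockout in all 4 pairs and Nfatc2 in 1 pair. Nfatc1, the member that activated T cells induce through an NFAT feedback, stood at 135, 138, 168 and 202 CPM in wild type 1 to 4 and at 159, 185, 180 and 285 CPM in knockout 1 to 4. Knockout 4 was the highest library, and the groups overlapped. The log2 change was 0.33 ± 0.20 without the block (edgeR adjusted p = 0.753) and 0.31 ± 0.08 with it (edgeR adjusted p = 0.0582), with blocked 95% bounds of 1.09-fold and 1.41-fold.

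Nfatc2, which encodes the NFAT1 protein already present in resting T cells, stood at 131, 77.9, 198 and 165 CPM in wild type 1 to 4, and knockout 1 to 4 had 108, 91.3, 153 and 135 CPM. As for Fosl2, Irf4 and Bhlhe40, number 2 was lowest in both genotypes. The log2 change was -0.23 ± 0.27 (edgeR adjusted p = 0.917). It ran from -0.43 without wild type 2 to -0.04 without wild type 3, and was -0.32 without both libraries numbered 2. Nfatc3, also constitutive in T cells, had 111, 112, 147 and 149 CPM in wild type 1 to 4 against 124, 129, 149 and 163 CPM in knockout 1 to 4, so that numbers 3 and 4 were the higher ones in both groups. The log2 change of Nfatc3 was 0.12 ± 0.14 (edgeR adjusted p = 0.917).

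Bhlhe40 was lower in the knockout in all 4 pairs. It stood at 755, 593, 614 and 839 CPM in wild type 1 to 4 and at 715, 503, 533 and 616 CPM in knockout 1 to 4. The difference was smallest in number 1 and largest in number 4, and the groups overlapped. The log2 change was -0.24 ± 0.15 without the block (edgeR adjusted p = 0.753) and -0.24 ± 0.07 with it (edgeR adjusted p = 0.0982). In all, 5 of 10 members differed in the same direction in all 4 pairs, 3 higher and 2 lower, where 30.6% of the genes tested did.

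**Figure D2:**
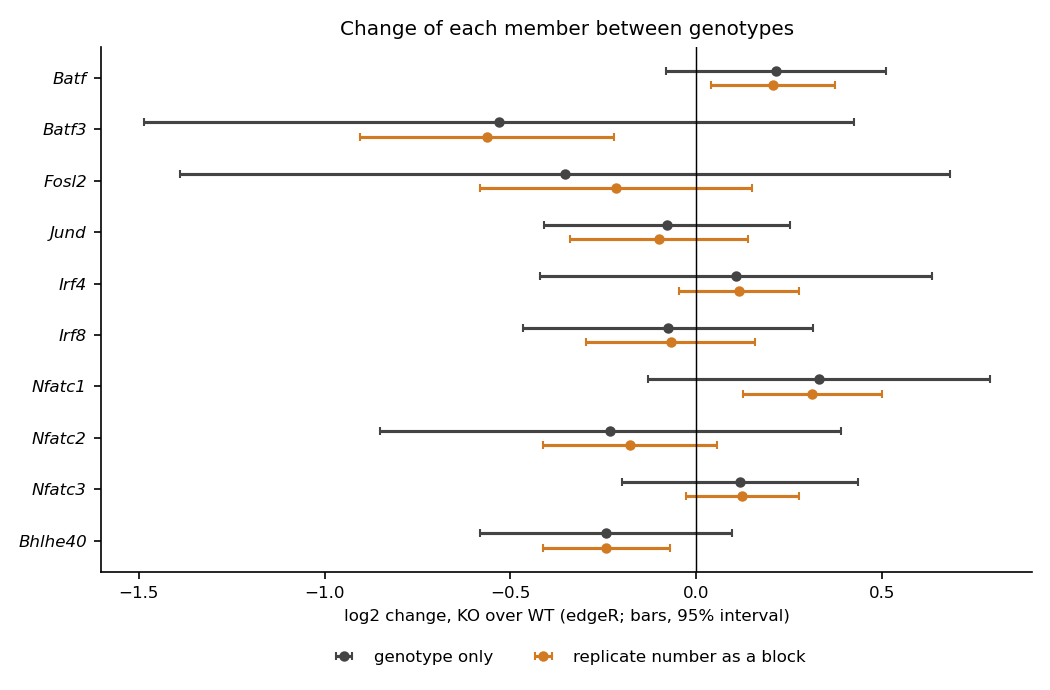
Log2 change of each member, knockout over wild type, from edgeR with genotype only (grey) and with the replicate number as a block (orange); bars are 95% intervals not adjusted for the number of genes. Blocked bars are narrower for every member, and the one for Irf4 runs from -0.05 to 0.28.

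The intervals show how far a change could have gone unseen. Without the block, the 95% interval for Fosl2 ran from 0.382-fold to 1.61-fold and that for Jund from 0.752-fold to 1.19-fold. In the blocked fit the Irf8 interval ran from 0.814-fold to 1.12-fold and the Nfatc3 interval from 0.981-fold to 1.21-fold. A change to 0.5 of the wild-type level lay outside the blocked interval of each member: the lowest bound of all was 0.534-fold, for Batf3. Without the block it lay inside the intervals of Batf3 and Fosl2, whose lower bounds were 0.357-fold and 0.382-fold. None of these intervals is adjusted for the number of genes.

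Without the libraries numbered 2, the blocked fit on 3 pairs called 3 of 10 members lower, beside 6.33% of all genes, and 0 higher, beside 3.69%. Nfatc2 changed by -0.31 ± 0.05 (edgeR adjusted p = 0.016), Batf3 by -0.66 ± 0.16 (edgeR adjusted p = 0.0426) and Jund by -0.24 ± 0.05 (edgeR adjusted p = 0.0404). Fosl2, at -0.42 ± 0.11, had edgeR adjusted p = 0.0571. These calls were present in no other fit, and without the block the same 6 libraries gave 0 calls among the members. In Fosl2, Jund and Nfatc2 the number 2 pair alone was higher in the knockout. The sex of the animals, as read from Xist and the Y-linked genes, cannot be told apart from whatever else sets number 2 apart.

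The replicate number accounted for more of the variation than genotype in each member when all 8 libraries were used, and in 8 of 10 without number 2. Of the sum of squares of log2 CPM over 8 libraries, the number took 94.9% for Irf4, 90.3% for Fosl2, 87.6% for Nfatc2 and 86.9% for Nfatc3. The lowest share was 54.9%, for Jund. Genotype took the most for Batf, with 28.5%, followed by Bhlhe40 with 26.2% and Nfatc1 with 23.7%, and the least for Fosl2, with 1.91%. The medians over all genes tested were 65.2% for number and under 10% for genotype, where number holds 3 and genotype 1 of 7 degrees of freedom. The total spread differed too: the SD of log2 CPM was 0.82 for Fosl2 and 0.75 for Batf3, against 0.21 for Batf and Nfatc3 and a median of 0.28 over all genes.

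Without both libraries numbered 2, a split added after the data had been seen, the share of the number in Fosl2 was 6.31% and that of genotype 68.0%, and the SD of log2 CPM was 0.28. Jund had 45.5% for number and 50.7% for genotype. In Irf4 the number took 72.1%, in Nfatc2 67.5% and in Nfatc3 90.8%. The medians over all genes tested were then 60.9% for number and 16.4% for genotype, where number holds 2 and genotype 1 of 5 degrees of freedom.

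**Figure D3:**
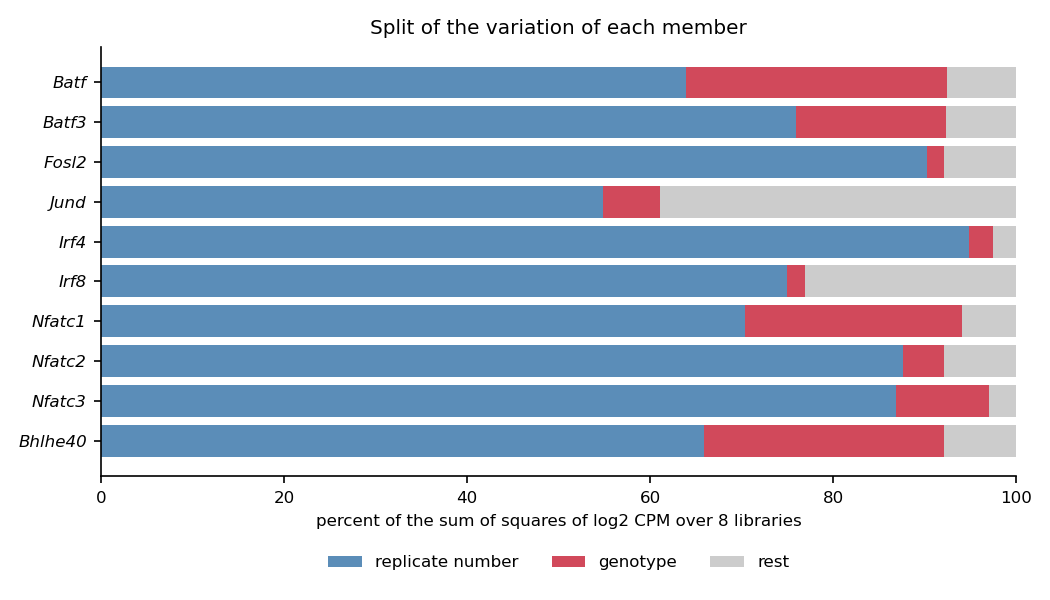
Share of the sum of squares of log2 CPM over 8 libraries that goes with replicate number, genotype and the rest, in percent, for each member. The blue part (number) is the largest in every bar, from 54.9% in Jund to 94.9% in Irf4; without the libraries numbered 2, number exceeded genotype in 8 of 10 members (not drawn).

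The promoter windows of Irf4, Fosl2 and Nfatc2 are shown because these members were lowest in the same numbered libraries, and that of Batf3 because its estimated change was the largest with all 8 libraries. Bhlhe40 was also lowest in number 2 in both genotypes, and no window of it was used. The windows hold 250 bases before to 50 bases after the RefSeq gene start (GRCm38.p6), at chr13:30748983-30749282 (plus strand) for Irf4, chr5:32136222-32136521 (plus) for Fosl2, chr2:168601608-168601907 (minus) for the first of the starts of Nfatc2 and chr1:191098164-191098463 (plus) for Batf3. Capitals mark matches on either strand to the NFAT core GGAAA or to an IRF pattern, GAAA repeated after any 2 bases; the AP-1 pattern TGANTCA was also searched and has no match in them.
Irf4: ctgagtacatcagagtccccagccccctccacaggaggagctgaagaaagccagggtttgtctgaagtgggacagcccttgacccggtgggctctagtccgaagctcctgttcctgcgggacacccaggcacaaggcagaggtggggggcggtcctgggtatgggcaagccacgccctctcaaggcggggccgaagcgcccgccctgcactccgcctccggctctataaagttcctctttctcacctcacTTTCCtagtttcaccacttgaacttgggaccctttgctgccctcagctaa
Fosl2: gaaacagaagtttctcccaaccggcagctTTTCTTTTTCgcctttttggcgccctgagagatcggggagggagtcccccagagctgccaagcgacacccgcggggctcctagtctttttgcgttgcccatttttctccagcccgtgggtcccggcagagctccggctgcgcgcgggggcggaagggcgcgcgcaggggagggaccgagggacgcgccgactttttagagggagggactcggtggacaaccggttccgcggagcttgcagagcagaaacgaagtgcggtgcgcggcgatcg
Nfatc2: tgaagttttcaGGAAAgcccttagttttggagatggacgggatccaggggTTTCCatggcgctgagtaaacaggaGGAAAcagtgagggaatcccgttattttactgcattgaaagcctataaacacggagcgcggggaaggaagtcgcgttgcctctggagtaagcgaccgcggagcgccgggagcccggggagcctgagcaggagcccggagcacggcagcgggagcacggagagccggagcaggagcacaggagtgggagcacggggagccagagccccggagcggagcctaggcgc
Batf3: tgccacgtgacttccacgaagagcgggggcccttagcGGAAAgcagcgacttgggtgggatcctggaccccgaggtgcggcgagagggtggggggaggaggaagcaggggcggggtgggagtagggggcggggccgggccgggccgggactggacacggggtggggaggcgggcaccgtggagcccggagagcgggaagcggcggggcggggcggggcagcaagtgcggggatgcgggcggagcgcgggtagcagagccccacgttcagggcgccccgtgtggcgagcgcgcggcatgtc
The Nfatc2 window held 3 matches to the NFAT core, the Irf4 and Batf3 windows 1 each and the Fosl2 window none, while Fosl2 alone had an IRF match. RefSeq windows were at hand for 8 of the members, 11 windows in all, of which 8 had the NFAT core, 1 the IRF pattern and 0 the AP-1 pattern. Among all 32851 windows of 300 bases these shares were 61.3%, 3.44% and 7.81%. No match overlapped another in the member windows. A match is a run of letters and not a measured binding site.

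Levels between genes were compared per kilobase of exon, with the lengths of GENCODE M21. In wild type Jund was the highest, with 229 ± 18.1 CPM per kb (SD, n = 4), and its libraries lay above all those of Bhlhe40, the next, at 149 ± 24.9. Irf4 followed at 146 ± 39.5, Irf8 at 87.2 ± 18.7 and Batf at 82.3 ± 8.19, and from Bhlhe40 to Batf each gene overlapped its neighbour in this order. Batf3, at 43.2 ± 17.9 CPM per kb, had all its libraries below those of Batf. Nfatc1 (21.5 ± 4.18), Fosl2 (21.0 ± 10.5), Nfatc2 (13.5 ± 4.86) and Nfatc3 (11.1 ± 1.79) came last, and each overlapped its neighbour. In the knockout Irf4 and Bhlhe40 changed places, as did Batf and Irf8, and Nfatc3 and Nfatc2. With the length of the longest transcript in place of all exons, Irf8 stood above Irf4 and Nfatc3 above Nfatc2 in wild type. Bhlhe40 was then at 225 ± 37.7 CPM per kb beside 229 ± 18.1 for Jund, and their libraries overlapped. Jund had 1 transcript in GENCODE M21, of 1668 bases, so the change of length could not alter its level. The RefSeq window of Jund (chr8:70697489-70697788) lay before the GENCODE start at 70698949, so the length of Jund and its first place are uncertain.

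**Figure D4:**
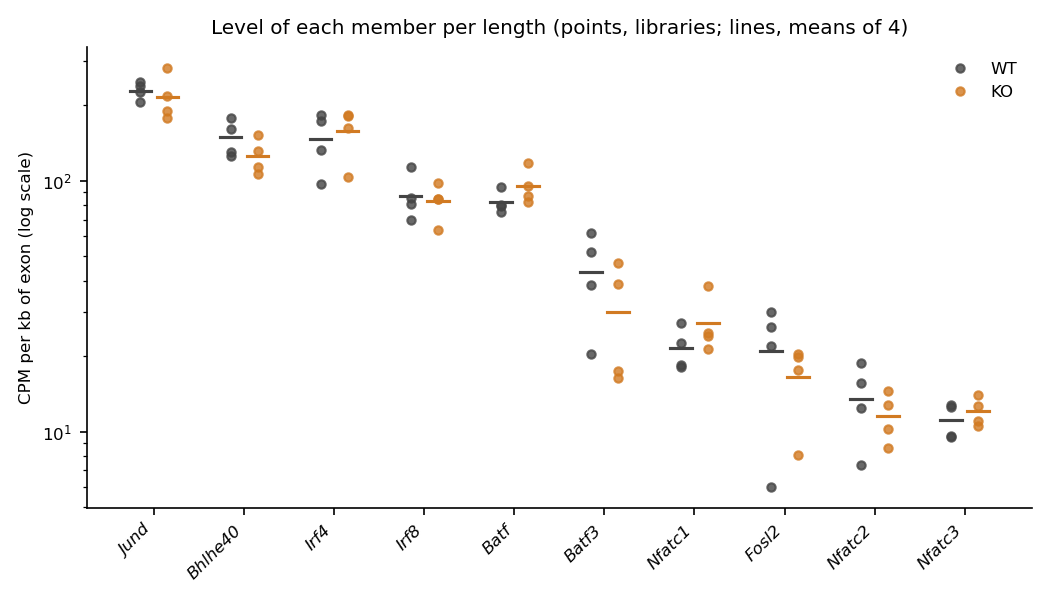
CPM per kilobase of exon (log axis) of each member, ordered by the wild-type mean; points are libraries, grey for wild type and orange for knockout, and lines are means of 4. Jund is highest at 229 CPM per kb and Nfatc3 lowest at 11.1 CPM per kb in wild type.

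The balance between relatives was read from ratios of counts within each library, which no scaling between libraries can alter. The log2 ratio of Batf3 to Batf was -0.42, -1.78, -0.35 and -0.87 in wild type 1 to 4 and -1.14, -2.26, -0.98 and -2.14 in knockout 1 to 4. It was lower in the knockout in all 4 pairs, with means of -0.85 ± 0.66 and -1.63 ± 0.66 (SD, n = 4), and the groups overlapped. The ratio of Nfatc2 to Nfatc1 was -0.05, -0.83, 0.24 and -0.29 in wild type and -0.56, -1.02, -0.23 and -1.08 in the knockout. It too was lower in the knockout in each pair. Irf8 to Irf4 (means -0.20 ± 0.43 and -0.39 ± 0.52) and Nfatc3 to Nfatc1 (means -0.30 ± 0.10 and -0.49 ± 0.23) were also lower in 4 of 4 pairs, whereas Fosl2 to Jund was lower in 2. These ratios restate the values above and were not tested; all 5 overlapped between the groups.

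Genes around the members were described by lists of relatives, regulators and known targets. Without the block no gene of these lists was called, beside 0.157% of all genes. In the blocked fit the background was 2.69% higher and 4.01% lower. Of 17 other AP-1 and bZIP genes 1 rose and 1 fell, with a median log2 change of -0.05: Bach2, a repressor that competes with AP-1, rose by 0.49 ± 0.07 (edgeR adjusted p = 0.00639, and 0.0524 without number 3), and Nfil3, a bZIP repressor, changed by -0.71 ± 0.12 (edgeR adjusted p = 0.0129). None of 7 other IRF genes was called, with a median of 0.15. At an unadjusted p under 0.05 there was 1 of them, where all genes gave 21.7%.

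Of 24 tested genes of calcium entry, calcineurin and NFAT control, 1 fell, and the median log2 change was 0.000455. This was Ppp3cc, a catalytic subunit of calcineurin, which went from 86.8 ± 31.9 to 60.8 ± 21.9 CPM (log2 change -0.51, edgeR with the block, adjusted p = 0.00471). Among 9 bHLH relatives of Bhlhe40, Id2, an inhibitor of E proteins, fell from 108 ± 16.2 to 76.4 ± 13.6 CPM (log2 change -0.51, edgeR with the block, adjusted p = 0.00631). The other 8 were not called.

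The list of T cell genes known as targets of BATF with IRF4 or of NFAT had 37 tested members. It was chosen with earlier results of these data known, so its counts are not independent of these data. In the blocked fit 13 of these genes fell, beside 4.01% of all genes, and 3 rose, beside 2.69%. The other 21 did not pass, and the median log2 change was -0.21. By the smallest p, those that fell were led by Havcr2, which encodes the inhibitory receptor TIM-3 (-1.87), Gzmb, which encodes granzyme B (-2.25), and Ifng, the Th1 cytokine gene (-1.17). Those that rose were Tox, a factor of chronically stimulated T cells, and the less abundant Tox2, its relative, with log2 changes of 1.44 and 1.20, and Nr4a2, a nuclear receptor gene induced by T cell receptor signals, with 0.59. Tox2 lost its call without number 3 or 4 (edgeR adjusted p = 0.132 and 0.0701) and Nr4a2 without number 3 (edgeR adjusted p = 0.108). DESeq2 without the block called 5 of the 37, beside 1.46% of all genes. These were Gzmb, Havcr2, Lag3, Ifng and Tox, with DESeq2 adjusted p = 0.000158, 0.000531, 0.00661, 0.00679 and 0.0404. Lag3, which encodes an inhibitory receptor, was chosen after its values were seen and had a log2 change of -0.70 in DESeq2. Whether the targets and the 10 factors differed in their response was not tested.

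**Figure D5:**
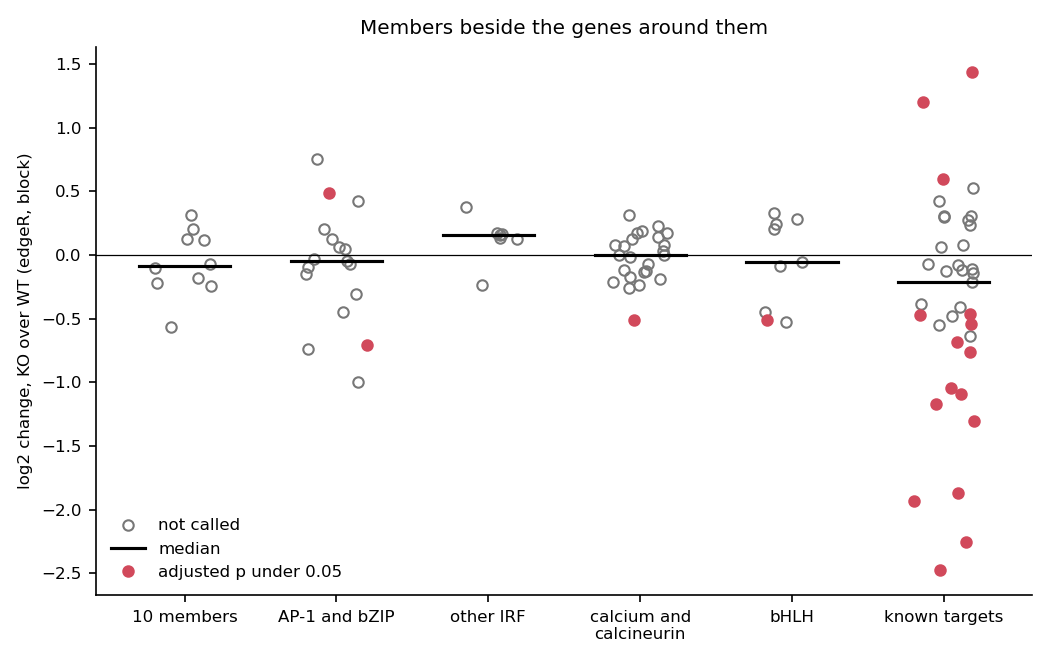
Log2 change, knockout over wild type, from edgeR with the replicate block, for the members and for 5 lists of genes around them; each point is a gene, filled where the adjusted p is under 0.05, and black lines are medians. No member is filled, while 16 of the 37 known targets are, 13 of them below 0, beside 6.71% of all genes tested. The lists were chosen with earlier results of these data known.

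Some markers of other cells differed with genotype or in single libraries. Gamma-delta T cell markers summed to between 21.3 and 74.4 CPM in wild-type libraries, and the knockout libraries had 7.37 to 22.3 CPM. In the blocked fit 4 of 5 tested genes were lower, beside 4.01% of all genes: Trdc, Tcrg-C1, Tcrg-C2 and Tcrg-C4. Sox13 was not called. Mast cell and basophil markers stood at 18.7 and 14.7 CPM in wild type 1 and 3. The other 6 libraries had no more than 3.82 CPM. Wild type 1 and 3 were also the wild-type libraries with the most Batf3. Knockout 1 and 3 likewise had the most Batf3 of their group, at 75.2 and 62.0 CPM, with marker sums of 3.82 and 3.39 CPM. NK cell, CD8, and monocyte and macrophage markers summed to at most 12.4, 16.2 and 1.99 CPM in any library, and Ncr1 had no counts. Of 2 NK cell markers tested, 1 was lower in the blocked fit, beside 4.01% of all genes. This was Klre1, with means of 1.29 and 0.505 CPM (log2 change -1.41 ± 0.30, edgeR adjusted p = 0.0285). Eomes, at means of 5.15 and 6.43 CPM, was not called. Heat and dissociation stress genes had 0 of 10 called in either fit, beside 0.157% of all genes without the block and 6.71% with it. The part of these cells in the values of Batf3 and the targets was not tested, and in bulk RNA fewer cells of a type and less RNA per cell cannot be told apart.

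By a root mean square difference of centred log2 CPM over 8 libraries, the genes at 10 CPM or more whose pattern was most like that of Batf were Rnaseh2a (0.0705), Them6 (0.0725) and Zfp444 (0.0731). For Irf4 they were Exoc2 (0.0935), Echdc1 (0.101) and Dtx3l (0.111). Same-numbered libraries deviate together, and this enters the measure as well as genotype does.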

How the data were processed

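RNA sequencing counts were analysed for 4 wild-type and 4 Ikzf4-/- libraries, with 25227017 to 53149322 counts each. The authors deposited whole-number read counts per gene; STAR 2.5.2, Subread 1.5.2 with featureCounts, DESeq2 and the build GRCm38 are named in the submitters' processing notes. Annotation, strand setting and multi-mapping rule: not given in the sources used here, so counts of overlapping genes are uncertain. Per the file headers, a log2 fold change (wild type over knockout), a p-value, a test statistic (a score) and a mean normalized count (a signal) from the authors stand beside the counts; they were not used for the values in the text. All 10 members were tested.

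Genes were filtered with filterByExpr and tested with edgeR 4.0.16 (TMM factors, quasi-likelihood, R 4.3.3) on genotype alone, with Benjamini-Hochberg adjustment over 14672 genes. CPM values use the TMM factors, log2 CPM a prior count of 2, and errors of changes are SEs. Alternatives were the replicate number as a block, DESeq2 1.42.0, other scalings, no filter, and each library or number left out; the fit without number 2 and without the block and the split of variation without number 2 were added after the data had been seen. The pairing by number rests on the values alone. Deviations of same-numbered libraries from their group means correlated across genes at 0.612 to 0.732, and all 8 libraries matched their own number best. Wild type 4 also correlated with knockout 3 at 0.539, wild type 3 with knockout 4 at 0.433 and wild type 1 with knockout 2 at 0.304. Numbers 1 and 2 correlated negatively with 3 and 4, so part of the shared deviation parts 1 and 2 from 3 and 4. The fits were tested on simulated data.

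The members, lists and rules were chosen with earlier results of these data known. Named genes are all members, Ikzf4, in each list every gene called without the block and up to 3 per direction by the smallest blocked p, and the genes nearest in pattern to Batf and Irf4. Sequences are from RefSeq promoter windows.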

Additional observations from a re-analysis of the deposited data

Results flagged for a closer look

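The log2 ratio of Fosl2 to Jund counts in knockout 2 was -2.60, far below the other knockout libraries at -0.91, -0.68 and -0.80, with a gap to the nearest that was 0.877 of the group's range. Wild type 2, at -2.69, was likewise the lowest of its group. It was the only one of 30 groups of 4 values looked at that passed Dixon's limit of 0.829, which chance passes in about 1 of 20.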

How the results depend on the processing

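The count of genes called higher and lower in the knockout was 8 and 15 in edgeR with genotype only. It was 395 and 589 with the replicate block, and 61 and 164 in DESeq2. Leaving out 1 library gave 7 to 9 higher and 7 to 15 lower, and leaving out both libraries numbered 2, an alternative added after the data had been seen, gave 6 and 5. In the blocked fit the counts were 250 and 372 without number 1, 529 and 908 without number 2, 144 and 254 without number 3, and 199 and 330 without number 4. Members called higher stayed at 0 in all of these fits. Members called lower ran from 0 to 3, with the 3 found in the blocked fit without number 2 alone; the replicate block changed no other call among the members. Leaving out 1 library moved the log2 change of Irf4 between -0.0452 (without wild type 2) and 0.263 (without knockout 2) and that of Irf8 between -0.177 (without wild type 3) and 0.0756 (without wild type 4). Irf8 also turned to 0.0281 without knockout 3 and to 0.0488 with the block without number 4; the cause was not tested. The other 8 members kept their direction in the 18 alternatives run, with log2 changes from -0.84 to -0.31 for Batf3, from -0.66 to -0.03 for Fosl2, from -0.43 to -0.04 for Nfatc2 and from 0.11 to 0.46 for Nfatc1, for example. Other scalings moved the median change of all genes by at most 0.0243 on the log2 scale. At these depths the spread between libraries, not counting error, limits what can be seen in the members.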
